A study of Mus musculus with 12 samples.

Results

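Myeloid granule and secreted protein genes were followed in haemogenic endothelium, a vessel-lining cell type that buds off blood cells. The 6 genes are Mpo, Prtn3, Lyz1, Lyz2, Hp and Spp1, matched by symbol, of 41128 genes in the deposited tables. They were chosen by their measured RNA levels with and without doxycycline (Dox) at each hour, so their Dox differences and their courses over time are given as a description, with no test. Of the 6 genes, 5 passed the filter on low counts that left 15347 genes to be tested, and Lyz1 did not.

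The cells came from mouse embryonic stem cells derived from the Ainv18 line, in which Dox switches on Sox7. FLK1+ cells, a mesodermal population that gives rise to endothelium and blood, were sorted on day 3.5 of embryoid body culture and kept for 48 h in a liquid medium that held VEGF and IL6, among other additions. They then received either 1 µg/ml Dox or none for 6, 12 or 24 h, which gave 6 groups of 2 libraries. Every group carries the inducible Sox7, so an effect of Dox itself and an effect of SOX7 cannot be told apart here. The series asks how SOX7, a transcription factor of early endothelium, acts on RUNX1 target genes as endothelium turns into blood.

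Total counts per library ranged from 13485804 to 35250074. Sox7 lay between 14.5 and 22.8 RPKM (reads scaled to the length of the gene and the size of the library) in the 6 libraries without Dox and between 86.3 and 106 RPKM in the 6 with Dox, and the groups did not overlap. The labels do not say whether the libraries of a group are separate cultures, so a p-value here reflects the spread between libraries only, which may be technical. Summed over 8 endothelial markers such as Cdh5 and Kdr, the libraries held 369 to 532 RPKM, so endothelial RNA was present. These markers do not tell haemogenic from other endothelium. The 9 mesenchyme and bone markers, Acta2 and the fibrillar collagens among them, summed to 2423 to 3271 RPKM, genes that are typical of other cell types. Acta2 alone had up to 2742 RPKM in a library and weighs most in this sum.

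Granulocytes and their precursors pack antimicrobial proteins into granules. The azurophil granule, the first to be made, holds myeloperoxidase (Mpo) and the serine proteases proteinase 3 (Prtn3), neutrophil elastase (Elane) and cathepsin G (Ctsg), and lysozyme is found in granules and in macrophage secretions. RUNX1, PU.1 (encoded by Spi1), C/EBP factors and MYB are known to drive such genes in myeloid progenitors. Haptoglobin (Hp), which captures free haemoglobin, is an acute phase protein that the liver makes in response to IL6 and that granulocytes also store. Osteopontin (Spp1), a secreted glycoprotein of macrophages, bone and other tissues, binds integrins and CD44.

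Mpo (ENSMUSG00000009350) is a gene of chromosome 11 on GRCm38, 87793581 to 87804413 on the plus strand. At 6 h its level was 4.19 and 3.78 RPKM in the untreated libraries (replicate 1, then replicate 2) and 2.98 and 2.18 RPKM with Dox. At 12 h it was 6.39 and 5.50 RPKM without Dox and 3.37 and 3.03 RPKM with it. At 24 h the untreated libraries held 7.45 and 7.30 RPKM and the Dox libraries 2.41 and 2.42 RPKM. Every Dox library was below every untreated library of its hour. The fitted log2 differences with Dox were -0.66 ± 0.13, -0.87 ± 0.12 and -1.60 ± 0.12 (SE) at 6, 12 and 24 h, the last a 3.03-fold lower level. Over the alternative settings the value at 6 h ran from -0.87 to -0.41, the latter without replicate 2 of 6 h of Dox. At 12 h it ran from -0.98 to -0.72. In bulk RNA, fewer cells of a type and less RNA per cell cannot be told apart, here and in all that follows.

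Prtn3 (ENSMUSG00000057729, chromosome 10, 79874476 to 79883174, plus strand), whose protease shares the azurophil granule with myeloperoxidase, was the sparsest gene that could be tested, with 137 reads in all 12 libraries. Without Dox it stood at 0.168 and 0.276 RPKM at 6 h, 0.229 and 0.370 RPKM at 12 h and 0.531 and 0.563 RPKM at 24 h. With Dox it stood at 0.0726 and 0.135, 0.224 and 0.310, and 0.138 and 0.0752 RPKM at the same hours. The groups overlapped at 12 h, and at 24 h the Dox libraries, with 8 and 2 reads, lay well below the untreated ones, with 14 and 35. Its log2 differences with Dox were -0.84 ± 0.68, -0.33 ± 0.51 and -2.20 ± 0.55. Over the alternative settings the value at 12 h ran from -0.55 to 0.15, so its sign depends on the setting. Of its windows of 75 bases, 5.06% also lie in Plppr3 on the opposite strand, which the count table lists as BC005764, with 890 reads.

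Lyz2 (ENSMUSG00000069516, chromosome 10, 117277334 to 117282274, minus strand), the lysozyme gene of macrophages and other myeloid cells, went the other way. At 6 h it stood at 3.39 and 3.66 RPKM without Dox and at 6.21 and 6.74 RPKM with Dox. At 12 h the untreated libraries held 4.54 and 4.71 RPKM and the Dox libraries 8.27 and 6.92 RPKM. At 24 h the values were 7.74 and 9.39 RPKM without Dox and 9.30 and 9.57 RPKM with it. The Dox libraries were higher than the untreated ones at 6 and 12 h, and the groups overlapped at 24 h. The log2 differences were 0.92 ± 0.16, 0.73 ± 0.14 and 0.12 ± 0.13. Adding the reads of Lyz1 to those of Lyz2 left them within 1 SE, which could not be otherwise, since Lyz1 had 1 read in all 12 libraries.

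Lyz1 (ENSMUSG00000069515, chromosome 10, 117287796 to 117292868, minus strand), the neighbouring lysozyme gene best known from Paneth cells of the gut, had 1 read in all 12 libraries, in replicate 1 of 24 h of Dox. A count of 0 in a group of this depth allows up to 0.0592 to 0.0715 CPM (counts scaled to the size of the library), counting error only, and no fold is given for it. The copies share 74 windows of 75 bases, the read length, which is 5.96% of those of Lyz2, so most of Lyz2 can be told from Lyz1.

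Hp (ENSMUSG00000031722, chromosome 8, 109575130 to 109579172, minus strand) had the steepest course of the 5 tested genes in untreated cells. Its level without Dox was 1.49 and 0.964 RPKM at 6 h, 5.66 and 4.40 RPKM at 12 h and 17.9 and 19.1 RPKM at 24 h. With Dox it was 0.984 and 0.819 RPKM, 1.52 and 1.11 RPKM, and 3.19 and 2.38 RPKM. The groups overlapped at 6 h and were far apart at 12 and 24 h. The log2 differences were -0.55 ± 0.29, -1.83 ± 0.20 and -2.67 ± 0.16, the last a 6.36-fold lower level with Dox. Over the alternative settings the value at 6 h ran from -0.74 to -0.11, the latter without replicate 1 of untreated 6 h.

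Spp1 (ENSMUSG00000029304, chromosome 5, 104435118 to 104441050, plus strand) was the most abundant of these genes, with 11363 reads in all libraries. It stood at 10.5 and 9.85 RPKM at 6 h, 25.3 and 24.8 RPKM at 12 h and 61.9 and 66.7 RPKM at 24 h without Dox. In Dox cells it was 8.55 and 8.72, 9.89 and 9.33, and 17.7 and 18.6 RPKM. No Dox library reached the level of an untreated library of its hour, and the gap widened from a log2 difference of -0.22 ± 0.09 at 6 h to -1.38 ± 0.08 at 12 h and -1.82 ± 0.07 at 24 h. Of the windows of 75 bases, the read length, 8.55% of those of Spp1 and 6.94% of those of Mpo also lie in an annotated neighbour or antisense gene (Gm42793, which is no row of the count table, and Gm11505, with 0 reads).

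**Figure D1:**
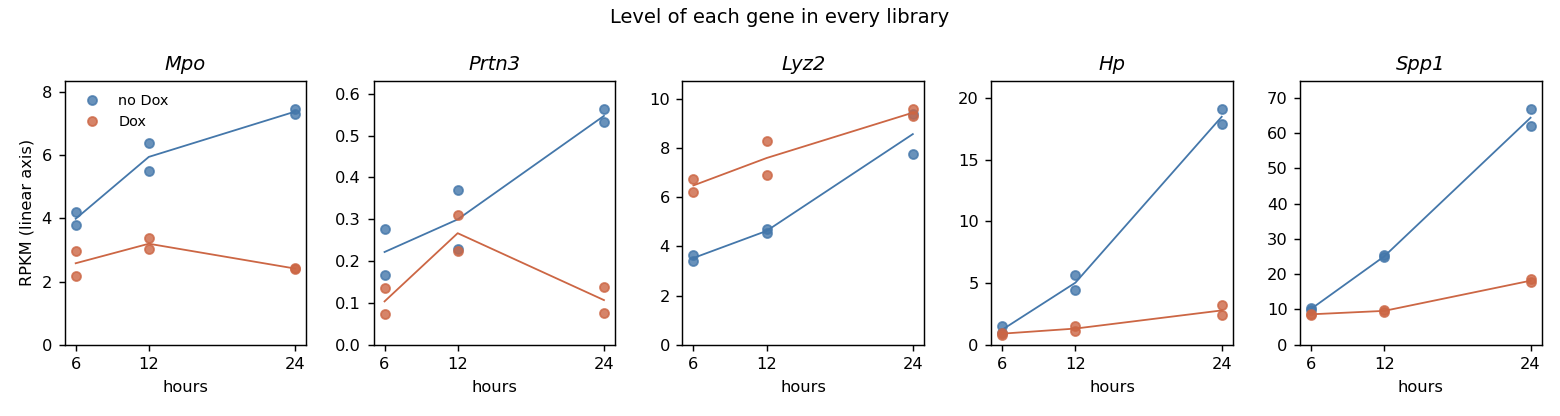
Level of each of the 5 tested genes in RPKM (linear axes that start at 0, 1 panel a gene) against hours, with a point for every library and a line through the group means, untreated in blue and Dox in orange. Hp reaches 17.9 to 19.1 RPKM in untreated cells at 24 h and 2.38 to 3.19 RPKM with Dox, while the Lyz2 points of both groups meet at 24 h.

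Promoter stretches are shown for Mpo and Spp1, which were lower with Dox at each hour, and for the lysozyme copies, of which Lyz2 was higher at 6 and 12 h and Lyz1 had almost no reads. They are RefSeq sequences on GRCm38.p6, printed 5′ to 3′ along the gene and ended before the first annotated exon, and 5 of the 6 genes had an entry, Hp having none. The motifs were chosen after these sequences had been seen. Capitals mark a RUNX-type match (TGTGGT or TGCGGT, here on the opposite strand as ACCACA) or a PU.1-type match (GAGGAAGT), each searched on both strands.
Mpo, chr11:87793534-87793580, plus strand: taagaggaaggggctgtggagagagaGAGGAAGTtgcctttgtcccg
Spp1, chr5:104434861-104435110, plus strand: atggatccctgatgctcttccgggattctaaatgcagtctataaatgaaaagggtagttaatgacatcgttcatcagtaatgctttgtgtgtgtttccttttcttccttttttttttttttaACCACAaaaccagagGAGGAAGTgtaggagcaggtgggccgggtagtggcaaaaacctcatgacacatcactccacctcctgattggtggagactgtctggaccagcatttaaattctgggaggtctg
Lyz2, chr10:117282322-117282522, minus strand: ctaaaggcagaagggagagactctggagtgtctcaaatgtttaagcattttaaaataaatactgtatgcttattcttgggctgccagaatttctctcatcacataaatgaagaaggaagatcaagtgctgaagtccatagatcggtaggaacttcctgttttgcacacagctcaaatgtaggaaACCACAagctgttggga
Lyz1, chr10:117292918-117293118, minus strand: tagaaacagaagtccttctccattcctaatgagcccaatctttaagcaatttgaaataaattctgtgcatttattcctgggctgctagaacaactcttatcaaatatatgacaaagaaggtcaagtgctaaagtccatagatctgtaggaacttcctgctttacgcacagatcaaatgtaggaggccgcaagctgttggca

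The PU.1-type match of Mpo lies 224 bases before the RefSeq start, and that of Prtn3, not printed, 95 bases before it. Spp1 holds a RUNX-type match 128 bases and a PU.1-type match 113 bases before its start. Lyz2 holds a RUNX-type match 66 bases before its start. Over the last 90 bases printed, Lyz2 and Lyz1 are identical at 77 (85.6%), and A185G and A188G (the base of Lyz2, the position from 1 at the 5′ end of the printed stretch, then the base of Lyz1) fall within that match. Among 32851 promoters of 250 bases, 18.6% hold the RUNX-type letters and 2.44% the PU.1-type letters. A C/EBP-type match (TTGCNNAA, 9.56% of promoters) was found for Lyz1, 209 bases before its start, a TATAAA match (12.4%) for Spp1, 211 bases before it, and no SOX-type match (ATTGTT or CATTGT, 16.2%) in any of the 5 windows. A match describes letters only and shows no binding.

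Set beside each other, the fitted Dox differences of Mpo and Hp were more negative at each later hour. That of Lyz2 started positive and was near 0 at 24 h. From 6 h to 12 h the step is not secure for Mpo or Lyz2, whose ranges over the alternative settings overlapped. Those of Mpo were -0.87 to -0.41 and -0.98 to -0.72, and those of Lyz2 0.72 to 0.96 and 0.57 to 0.83. The change of the Dox difference from 6 h to 24 h was -0.94 ± 0.18 for Mpo, -2.12 ± 0.35 for Hp and -0.79 ± 0.20 for Lyz2 on the log2 scale, so it was negative for all 3. Over all tested genes 2.08% were called for this change. For Spp1 it was -1.60 ± 0.12 and for Prtn3 -1.35 ± 0.92. Of the 5 tested members, 1 was called lower (Mpo) and 1 higher (Lyz2) at 6 h at an adjusted p under 0.05, where 0.717% of all tested genes were called lower and 0.821% higher. The counts were 3 lower and 1 higher at 12 h (3.51% and 3.26% of all genes) and 4 lower and 0 higher at 24 h (6.52% and 4.5%), and nothing is read from them, because these comparisons chose the genes.

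**Figure D2:**
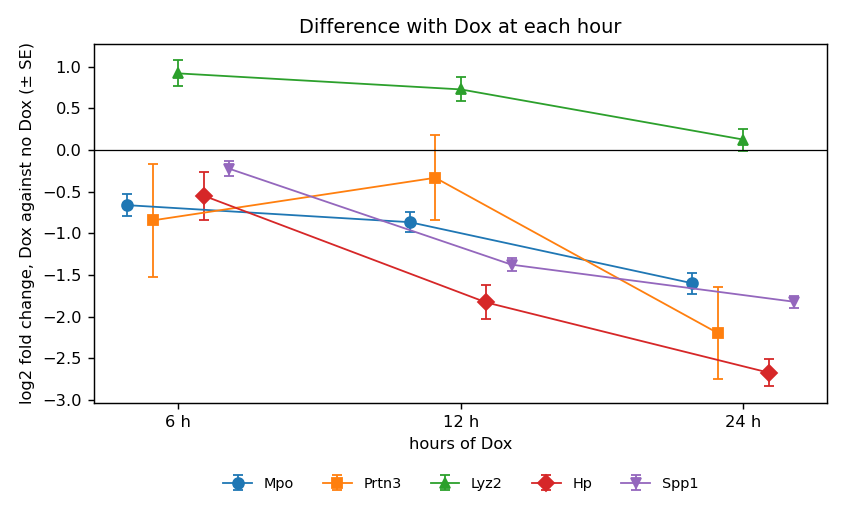
Log2 fold change of Dox against no Dox (vertical axis, bars ± SE) at 6, 12 and 24 h for the 5 tested genes, with points shifted sideways for legibility. Lyz2 is above 0 at 6 and 12 h (0.92 and 0.73) and near 0 at 24 h, and the other genes are below 0 at each hour, with Prtn3 at 12 h within 1 SE of it.

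Counted within a library, where scaling between libraries plays no part, Lyz2 had more reads relative to Mpo with Dox than without it at each hour. Untreated libraries had 0.300 and 0.358 Lyz2 reads per Mpo read at 6 h, 0.263 and 0.317 at 12 h and 0.384 and 0.476 at 24 h. With Dox the ratio was 0.772 and 1.14, 0.908 and 0.845, and 1.43 and 1.46. The lowest Dox library at any hour was thus above the highest untreated library at any hour. Against Hp the ratio was higher at 6 h than at 24 h in both arms, 2.15 and 3.58 against 0.408 and 0.464 without Dox and 5.95 and 7.76 against 2.75 and 3.80 with Dox. These ratios use raw reads and do not compare transcript levels between genes, whose lengths differ.

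**Figure D3:**
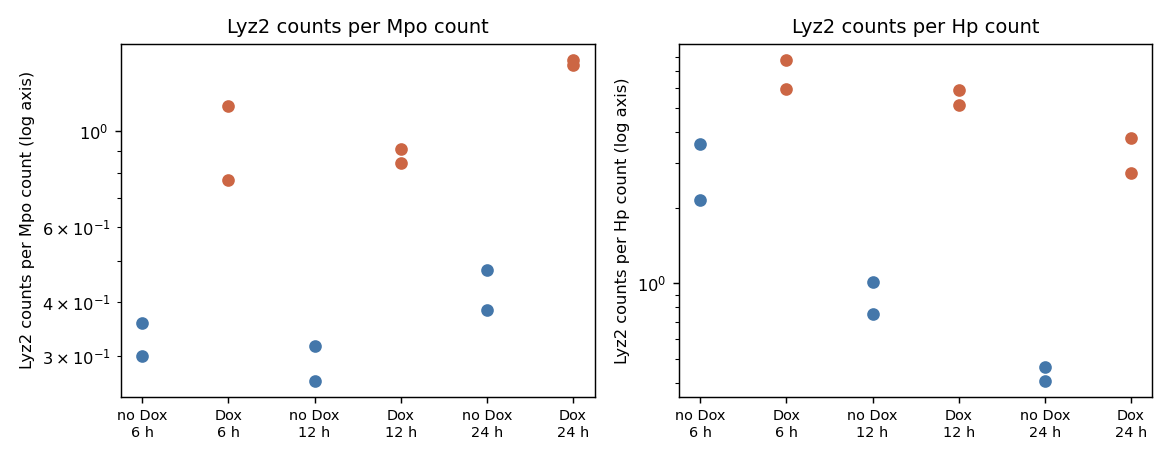
Reads of Lyz2 per read of Mpo (left) and per read of Hp (right) in each library, on log axes, untreated in blue and Dox in orange. The 6 Dox libraries lie at 0.772 to 1.46 Lyz2 reads per Mpo read and the 6 untreated libraries at 0.263 to 0.476.

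The courses over time use the same 12 libraries whose levels chose the genes, so they too are a description, with no test. In untreated cells the log2 change passed the threshold in the fit over all genes for Mpo, Hp and Spp1 from 6 h to 12 h and for Mpo, Lyz2, Hp and Spp1 from 12 h to 24 h. These were 3 and 4 of the 5 tested members, all higher, where 4.39% and 12.2% of all tested genes were called higher, and nothing is read from the counts. The median log2 change over all tested genes was 0.0021 from 6 h to 12 h and 0.0061 from 12 h to 24 h.

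The log2 change of Hp in untreated cells was 1.90 ± 0.21 from 6 h to 12 h and 1.93 ± 0.15 from 12 h to 24 h. For Spp1 it was 1.28 ± 0.08 and then 1.37 ± 0.07. From 6 h to 24 h, the mean level of Hp was 15.0-fold and that of Spp1 6.32-fold higher, against 1.85-fold for Mpo and 2.43-fold for Lyz2. Mpo changed on the log2 scale by 0.54 ± 0.12 and by 0.34 ± 0.11, and the latter value ran from 0.22 to 0.43 over the alternative settings. The values of Lyz2 were 0.41 ± 0.16 from 6 h to 12 h and 0.91 ± 0.14 from 12 h to 24 h. Those of Prtn3 were 0.62 ± 0.55 and 0.79 ± 0.46.

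In Dox-treated cells the log2 changes from 6 h to 12 h were 0.34 ± 0.13 for Mpo, 1.13 ± 0.63 for Prtn3, 0.21 ± 0.14 for Lyz2, 0.62 ± 0.28 for Hp and 0.13 ± 0.09 for Spp1. None of the 5 passed the threshold, where 18.9% of all tested genes were called. From 12 h to 24 h of Dox the log2 change was 1.09 ± 0.22 for Hp and 0.93 ± 0.08 for Spp1, where 7.84% of all tested genes were called higher. The value of Hp was 0.71 to 1.40 over the alternative settings. Mpo had a change of -0.40 ± 0.13, where 5.98% were called lower, and Prtn3 one of -1.08 ± 0.62. For Lyz2 it was 0.31 ± 0.13. From 6 h to 24 h of Dox the mean level changed 0.935-fold for Mpo, 1.03-fold for Prtn3, 1.46-fold for Lyz2, 3.09-fold for Hp and 2.10-fold for Spp1.

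Most of the other classical granule genes were almost silent in every group. Of 7 further azurophil granule genes, Elane and Bpi had 1 read each and Ctsg 2 reads in all 12 libraries, which is below the 3 counts, or 0.011 CPM, that a count of 0 would allow over all libraries. Of 15 genes of specific and gelatinase granules, 12 were too low to be tested, with at most 42 reads in all libraries (Ltf, which encodes lactoferrin). Camp, Chil3, Itgb2l and S100a9 had none. Of 11 eosinophil, mast cell and lymphocyte granule genes, only Mcpt8, a basophil protease gene, could be tested, and it was not called with Dox at any hour.

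**Figure D4:**
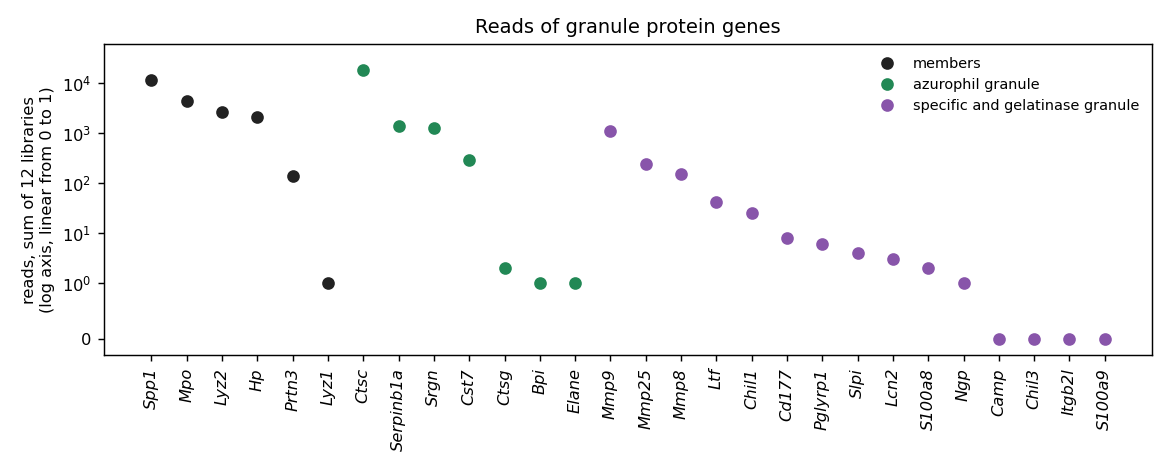
Reads summed over all 12 libraries (vertical axis, log scale above 1 and linear from 0 to 1) for the 6 genes and for further genes of azurophil and of specific and gelatinase granules. Spp1, Mpo, Lyz2 and Hp have 2043 to 11363 reads, whereas Elane, Bpi and Ctsg have 1 or 2.

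The 4 genes of the azurophil granule list that could be tested encode proteins that activate, hold or inhibit granule proteins or cathepsins. Elane, Ctsg and Bpi were not among them. At 24 h of Dox 4 of these 4 were lower (6.52% of all genes). Their median log2 difference was -1.59, against -0.0086 over all tested genes. Adjusted p-values are from the quasi-likelihood test of edgeR with Benjamini-Hochberg adjustment over 15347 genes, here and for all further genes. Ctsc, which encodes the peptidase that activates granule serine proteases, fell by 1.19 ± 0.06 on the log2 scale (adjusted p = 2.7e-14). Srgn, for the proteoglycan serglycin that holds granule proteins, fell by 2.09 ± 0.19 (adjusted p = 1.5e-09). Cst7, for a cystatin that inhibits cathepsins, fell by 1.98 ± 0.42 (adjusted p = 0.0012), and Serpinb1a, for an inhibitor of granule proteases, by 0.65 ± 0.17 (adjusted p = 0.0097). The call of Cst7 was lost without untreated replicate 2 or Dox replicate 1, and under the filter of 1 CPM in 4 libraries it was not tested. That of Serpinb1a was lost with DESeq2, with limma at a pseudocount of 0.1, and without untreated replicate 2 or either Dox library (adjusted p up to 0.14), so DESeq2 and that limma fit called 3 of the 4.

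At 6 h none of these 4 was called by edgeR, DESeq2 or limma, or had an unadjusted p under 0.05, and at 12 h Ctsc (-0.31 ± 0.07, adjusted p = 0.0031) and Srgn (-1.16 ± 0.21, adjusted p = 0.00046) were lower. In untreated cells 3 of the 4 rose in each interval (4.39% and 12.2% of all genes), Ctsc by 0.31 ± 0.07 (adjusted p = 0.0035) and then 1.01 ± 0.06 (adjusted p = 1.1e-12). From 6 h to 12 h the call of Srgn was lost with limma at a pseudocount of 0.1 and without either 6 h library or replicate 1 of 12 h (adjusted p up to 0.10), and that of Serpinb1a without replicate 2 of 6 h (0.050). Among the specific and gelatinase granule genes, the collagenase gene Mmp8 fell at 24 h by 2.22 ± 0.48 (adjusted p = 0.0016, lost without untreated replicate 2 or Dox replicate 1). It had 96 reads in untreated cells at 24 h and 4 to 18 in each other group. It thus passed the filter through the group where it was high, and its p is no independent support. Under the filter of 1 CPM in 4 libraries it was not tested. The gelatinase gene Mmp9 (0.15 ± 0.20) and Mmp25 (0.50 ± 0.49) were not called.

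Lysozyme is also at home in lysosomes and secretory cells. At 24 h of Dox, 6 of 19 lysosome genes were lower and 0 higher, where 6.52% of all tested genes were called lower and 4.5% higher. Ctss, 1 of the 19, had 42 reads in untreated cells at 24 h and 2 to 10 in each other group. It thus passed the filter through the group where it was high. A call of it in a comparison with that group would be no independent support. The list's median log2 difference was -0.07, and 3 of the 19 values were above 0. Ctsd, the cathepsin D gene, fell by 0.34 ± 0.05 (adjusted p = 1.6e-05), and Gusb and Ctsb fell by 0.29 ± 0.07 and 0.20 ± 0.05 (adjusted p = 0.0035 and 0.0085). The latter 2 lost their call without untreated replicate 2, and Ctsb also without untreated replicate 1 or Dox replicate 1. At 6 h, when Lyz2 was highest relative to untreated cells, none of the 19 was called by edgeR, DESeq2 or limma, and 2 had an unadjusted p under 0.05. In untreated cells 13 of 19 rose from 12 h to 24 h (12.2% of all genes).

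For the setting of Hp, 6 of 10 genes of IL6 signalling and the acute phase could be tested. At 24 h of Dox, Il6ra, the IL6 receptor gene, fell by 0.86 ± 0.18 (adjusted p = 0.0014) from a mean of 2.05 to 1.11 RPKM. The acute phase regulator gene Cebpd fell by 0.43 ± 0.11 (adjusted p = 0.0051) and the feedback inhibitor gene Socs3 by 0.30 ± 0.09 (adjusted p = 0.022). Cebpd lost its call without untreated replicate 1 or Dox replicate 2, and Socs3 with DESeq2, with limma and without either untreated library or Dox replicate 1. Stat3, which carries the IL6 signal to the nucleus, was not called (0.05 ± 0.05, adjusted p = 0.67), and the list's median was -0.17. Of other acute phase genes, Saa3 had 1 read and Orm1 none.

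Of the 6 hepatic and endoderm markers, the genes of the plasma proteins Alb, Ttr and Apoa1 had 2, 29 and 16 reads in all libraries, and Afp, Foxa2 and Hnf4a, which passed the filter, had 179, 369 and 91, where Hp had 2043. Summed over the 6, the libraries held 0.775 to 1.46 RPKM, which overlaps the level of Hp at 6 h, and 1.01 to 1.23 RPKM at 24 h. Their part in the values of Hp was not tested. The scavenger receptor gene Cd163, whose protein takes up haptoglobin with haemoglobin, had none. Of 8 tested genes of haemoglobin and haem clearance, 2 were lower at 24 h of Dox and 0 higher (6.52% and 4.5% of all tested genes, list median -0.13). Blvrb, for a biliverdin reductase, fell by 0.94 ± 0.12 (adjusted p = 5.7e-07). The ferritin gene Fth1 fell by 0.23 ± 0.06 (adjusted p = 0.0065), a call lost with limma and without untreated replicate 1 or Dox replicate 2. Hmox1, for haem oxygenase, was not called (-0.09 ± 0.06, adjusted p = 0.44), nor was Lrp1, a receptor for haem bound to haemopexin (0.09 ± 0.05, adjusted p = 0.31).

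For the setting of Spp1, 10 of 14 genes of osteopontin receptors and relatives could be tested. The related bone and tooth matrix genes had 0 to 3 reads each (Mepe 0, Ibsp 1, Dspp 1, Dmp1 3). At 24 h of Dox 4 of the 10 were lower and 0 higher (6.52% and 4.5% of all tested genes), with a list median of -0.01. Itgb3, the integrin β3 gene, fell at each hour, by 0.37 ± 0.06, 0.61 ± 0.06 and 0.73 ± 0.06 (adjusted p = 0.00058, 4.9e-08 and 1.9e-10), the first lost with limma and without Dox replicate 2 (adjusted p up to 0.076). Itga4, the integrin α4 gene, fell by 0.55 ± 0.11, 0.54 ± 0.10 and 1.14 ± 0.10 (adjusted p = 0.0025, 0.00075 and 7.8e-10), the first 2 lost with limma and the first also without untreated replicate 1 or Dox replicate 2. Itga8 (-0.52 ± 0.14, adjusted p = 0.011) and Itgb5 (-0.27 ± 0.07, adjusted p = 0.013) were lower at 24 h. Both calls were lost with limma, that of Itga8 also without either untreated library or Dox replicate 2, and that of Itgb5 also without untreated replicate 1 or either Dox library. The other receptor genes were not called at 24 h.

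Of 8 tested genes for regulators of granule proteins, 4 were lower at 6 h, 3 at 12 h and 5 at 24 h. Over all tested genes 0.717%, 3.51% and 6.52% were called lower at these hours. The list's median at 24 h was -0.73. The limma fits each called 2 of the 8 at 6 h and 2 at 12 h. Spi1 fell by 1.19 ± 0.20, 0.96 ± 0.17 and 1.82 ± 0.17 (adjusted p = 0.00050, 0.00040 and 1.5e-09), the first lost with limma (adjusted p up to 0.081). Cebpb fell by 0.52 ± 0.11, 0.75 ± 0.10 and 0.79 ± 0.09 (adjusted p = 0.0087, 6.8e-06 and 2.6e-07), and its call at 6 h was lost without any 1 of the 4 libraries. Myb fell by 0.86 ± 0.11, 0.45 ± 0.11 and 0.66 ± 0.11 (adjusted p = 1.8e-05, 0.0074 and 8.6e-05). Its call at 12 h was lost with limma and without untreated replicate 1 or Dox replicate 2. Irf8, a regulator of the monocyte lineage, fell at 24 h by 1.91 ± 0.41 (adjusted p = 0.0013). Gfi1, a repressor active in granulocytes and in emerging blood cells, was higher at 24 h (0.71 ± 0.16, adjusted p = 0.0029), a call lost without untreated replicate 1 or Dox replicate 1. Cebpe, which drives specific granule genes, had 13 reads in all libraries.

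**Figure D5:**
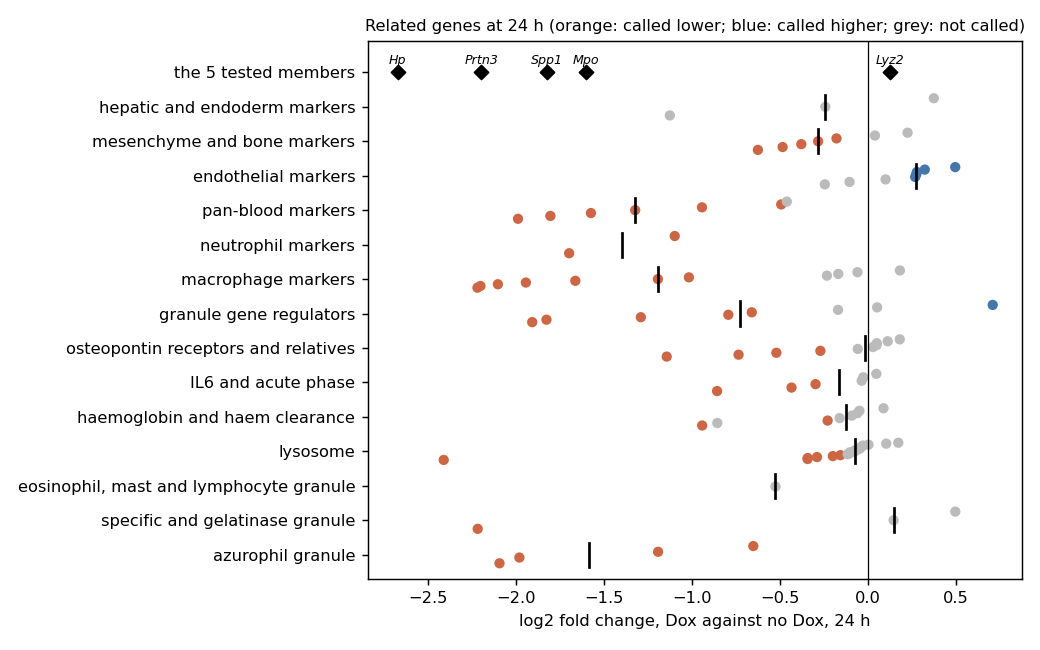
Log2 fold change of Dox against no Dox at 24 h (horizontal axis) for every tested gene of 14 lists, 1 point a gene and 1 row a list, with a black bar at each list's median and the 5 tested members as diamonds in the top row. Points are orange where called lower, blue where called higher and grey where not called. Among the orange points are the 4 tested genes of the azurophil granule list (Ctsc, Srgn, Cst7 and Serpinb1a) and 6 of 19 lysosome genes.

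Many markers of blood cell types were lower at 24 h of Dox as well, where 6.52% of all tested genes were called lower and 4.5% higher. Of 11 tested macrophage markers, 7 were lower at 24 h of Dox and 0 higher (median -1.19), among them Itgam (-2.10 ± 0.17, adjusted p = 1.3e-10), Cx3cr1 (-1.66 ± 0.15, adjusted p = 2.6e-09), Cd14 (-2.20 ± 0.22, adjusted p = 1.2e-08) and Csf1r (-1.19 ± 0.17, adjusted p = 6.8e-06). Summed over 12 macrophage markers, untreated libraries held 11.0 to 12.0 RPKM at 6 h, 13.7 to 14.4 at 12 h and 25.2 to 25.9 at 24 h, and Dox libraries 10.8 to 11.4, 12.3 to 13.5 and 10.8 to 11.4 RPKM. C1qa had 3 reads in all libraries. Mrc1 had 10713, and up to 8.35 RPKM in a library, with at most 1713 reads for each other marker. Mrc1 thus weighs heavily in these sums. From 12 h to 24 h of Dox 4 of the 11 tested markers were called higher and 1 lower (7.84% and 5.98% of all tested genes). Their median log2 change was 0.48. The sums of both arms overlapped at 6 h and not at 12 or 24 h. At 6 h of Dox 1 of the 11 macrophage markers was called lower (Cx3cr1, -1.05 ± 0.27, adjusted p = 0.036, a call lost in 7 of 13 alternatives) and at 12 h 2 were, Cx3cr1 and Cd14 (-1.28 ± 0.25, adjusted p = 0.0012). Over all tested genes 0.717% were called lower at 6 h and 3.51% at 12 h. The call of Cx3cr1 at 6 h was lost with DESeq2, with limma, with only the groups compared, and without untreated replicate 1 or either Dox library (adjusted p up to 0.70). At 12 h it was lost in 8 of 13, namely those tools and that fit and without any 1 of the 4 libraries (adjusted p up to 0.43), and that of Cd14 in none.

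Pan-blood markers gave 0 of 7 called at 6 h and at 12 h by edgeR, DESeq2 or limma, with 2 and 5 at an unadjusted p under 0.05. At 24 h 6 of the 7 were lower (6.52% of all tested genes, list median -1.32). Their sum was 21.5 to 22.1, 25.1 to 28.0 and 43.3 to 44.5 RPKM without Dox and 18.2 to 19.1, 20.5 to 23.7 and 20.8 to 22.3 RPKM with it, and the arms did not overlap at any hour. Coro1a (-1.80 ± 0.14), Itgb2 (-1.99 ± 0.20), Ptprc (-1.57 ± 0.18) and Laptm5 (-0.94 ± 0.08) were lower at 24 h (adjusted p = 1.2e-10, 1.0e-08, 2.1e-07 and 3.8e-10). The 8 neutrophil markers summed to 0.384 to 0.402, 0.695 to 1.15 and 1.21 to 1.37 RPKM without Dox and 0.230 to 0.390, 0.294 to 0.453 and 0.552 to 0.725 RPKM with it, and Ly6g, Fpr1, Retnlg, Stfa1 and Stfa2 had no read in any library. Csf3r and Cxcr2, the only testable ones, were lower at 24 h (-1.70 ± 0.43, adjusted p = 0.0069, and -1.10 ± 0.36, adjusted p = 0.048), Csf3r not without untreated replicate 1 or Dox replicate 1 and Cxcr2 not with DESeq2, upper-quartile scaling or limma at a pseudocount of 0.1, nor without any 1 of the 4 libraries. The part of these cell types in the values of Mpo, Prtn3, Lyz2, Hp and Spp1 was not tested.

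Endothelial markers were higher at 24 h of Dox in 5 of 8 and lower in 0 (4.5% and 6.52% of all tested genes, list median 0.27). Cdh5 was higher by 0.50 ± 0.05 (adjusted p = 5.7e-08) and Tek by 0.32 ± 0.06 (adjusted p = 0.00011). Pecam1 was higher by 0.27 ± 0.05 (adjusted p = 0.00052) and Tie1 by 0.28 ± 0.06 (adjusted p = 0.00087), the latter not without untreated replicate 2. Their sum was 369 to 377 RPKM without and 438 to 459 RPKM with Dox at 24 h, and 470 to 473 against 497 to 532 RPKM at 6 h. Mesenchyme and bone markers, which include cell types that make osteopontin, were lower in 5 of 7 (6.52% of all tested genes, list median -0.28). Postn was at -0.48 ± 0.07 (adjusted p = 2.1e-06) and Col1a1 at -0.38 ± 0.05 (adjusted p = 2.3e-06). All markers of this list summed to 3203 to 3271 RPKM without and 3145 to 3164 RPKM with Dox at 24 h. Acta2, with up to 2742 RPKM in a library, weighs most in these sums, and each other marker had at most 381 RPKM. The bone genes Bglap and Sp7 had 2 and 34 reads in all libraries. Of the hepatic and endoderm markers none of 3 was called by edgeR, DESeq2 or limma, or had an unadjusted p under 0.05, at any of the 3 hours. The part of these markers too was not tested.

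Across the 6 group means, Hp and Spp1 ran together most closely of the member pairs (Pearson r of log2 CPM = 0.997), and Mpo ran with Prtn3 (r = 0.918). Lyz2 had r of -0.23 with Mpo and 0.32 with Hp. These are descriptions over 6 points that share libraries, and no p is given. Among 11124 other named genes whose mean log2 CPM reached 1, the 5 most like Mpo were Mfsd11, Zfp36l2, Lcp2, Ikzf1 and Cox6a1 (r = 0.984 to 0.998). The 5 most like Hp were Ccl6, Pik3ap1, Zfand5, Irgm2 and Ptk2b (r = 0.992 to 0.999). The 5 most like Lyz2 were Iba57, Zyg11b, Irak1, Btbd7 and Nfib (r = 0.987 to 0.996). Each set holds the highest of 11124 values over only 6 points, so nothing is read from which genes are in it.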

How the data were processed

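The 12 RNA libraries of mouse haemogenic endothelium were grouped by the sample titles into Dox and no Dox at 6, 12 and 24 h. Per the labels' protocols, a strand-specific kit was used and single reads of 75 bases were sequenced. The submitters' processing notes name GRCm38, edgeR 3.8.5, R 3.1.0, Bowtie2 2.21, SAMtools 0.1.19 and bcl2fastq 2.16.0.10. How reads were assigned to genes, with which strand setting and annotation release, is not given in the sources used here, so overlapping, antisense and near-identical genes are uncertain. For 41128 genes the authors deposited raw read counts in whole numbers and, beside them, RPKM values. The size factor that links the deposited counts to RPKM was within 1.33% of the library size after TMM scaling.

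Counts were tested with edgeR 4.0.16 in R 4.3.3: filterByExpr (15347 genes kept), TMM scaling and a quasi-likelihood fit of 6 group means to all 12 libraries with 6 residual degrees of freedom. Benjamini-Hochberg adjustment covered all of these genes, and an adjusted p under 0.05 was called. SE is the size of the fitted log2 change over the root of its F statistic. The script was tested on simulated counts. Replicates differed by more than counting noise (chi-square per degree of freedom 2.63 to 4.61) and were kept apart. Intervals and floors cover counting error only.

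The 6 genes, the 14 lists of 144 genes and the rule for named genes were chosen with earlier results of these data known. Since the levels in all 12 libraries chose the 6 genes, no p is given for them in any comparison, and only the list genes are tested. The rule names the 6 genes and Sox7, up to 4 tested genes of each list by adjusted p for Dox at 24 h with any called gene that goes against its list, and the 5 genes most like Mpo, Hp and Lyz2 over the group means. Other genes given by read counts alone were named after their values were seen. A gene that the rule names in the lysosome list is not reported here. Alternatives were upper-quartile or RLE scaling, no filter or a filter of 1 CPM in 4 libraries, a replicate block, DESeq2 1.42.0, limma 3.58.1 on log2(RPKM + 0.1) and log2(RPKM + 1), only the groups compared, each library left out in turn, and the reads of Lyz1 and Lyz2 summed. Windows of 75 bases were compared over the exons of GENCODE M21.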

Additional observations from a re-analysis of the deposited data

Results flagged for a closer look

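The effect of Dox differed between 6 h and 24 h for several genes. Of the genes chosen for their response, the change of the log2 difference was -0.94 for Mpo, -0.79 for Lyz2, -2.12 for Hp and -1.60 for Spp1, with no test because the choice used it. Over all tested genes, 2.08% were called for this change. The list genes below were named by their adjusted p for Dox at 24 h, a difference that is part of this change. Only those called for the change are listed, so their p-values are no independent support.

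Granule, haem and adhesion genes that were tested for it had changes of -1.12 for Ctsc (edgeR adjusted p = 2.6e-09), -1.72 for Srgn (0.0011), -0.84 for Blvrb (0.0031), -0.33 for Fth1 (0.022), -0.37 for Itgb3 (0.016) and -0.59 for Itga4 (0.024). Gfi1 changed the other way, by 0.99 (edgeR adjusted p = 0.013), from -0.29 at 6 h to 0.71 at 24 h. Of 17 alternatives, the call was lost in 0 for Ctsc, 1 for Srgn (without replicate 2 of 6 h of Dox), 2 for Blvrb (both limma fits), 6 for Gfi1, 7 for Fth1, 8 for Itgb3 and 9 for Itga4. Gfi1, Fth1, Itgb3 and Itga4 lost it in both limma fits and without any 1 of 4 to 6 libraries, and Itga4 also with DESeq2 (adjusted p up to 0.32).

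Among marker genes the changes were -1.67 for Itgam (edgeR adjusted p = 0.0018), -1.91 for Cd14 (0.0025), -1.31 for Csf1r (0.010), -1.27 for Coro1a (0.0037), -0.77 for Laptm5 (0.00015), -1.42 for Ptprc (0.0100), 0.31 for Cdh5 (0.023) and -0.28 for Col1a1 (0.032). The call was lost in 8 of 17 alternatives each for Cdh5 and Col1a1 (both limma fits and 6 fits without a library, adjusted p up to 0.30), 4 for Ptprc (limma at a pseudocount of 0.1 and 3 fits without a library), 3 for Csf1r, 2 for Coro1a and 1 for Cd14 (fits without a library), and 0 for Itgam and Laptm5.

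From 12 h to 24 h, the fitted values of Mpo, Prtn3 and Blvrb had opposite signs in the arms, and in each arm the libraries of both hours did not overlap. The log2 values without and with Dox were 0.34 and -0.40 for Mpo and 0.79 and -1.08 for Prtn3, with no test. For Blvrb they were 0.34 (edgeR adjusted p = 0.025, lost in 5 of 13 alternatives, adjusted p up to 0.67) and -0.11 (adjusted p = 0.63, not called). The difference between the arms over this interval was not tested. These genes are listed because they showed this pattern among the members and named genes. How many of all tested genes show it was not counted, so nothing is read from it. Prtn3 had only 8 and 2 reads in the Dox libraries at 24 h.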

How the results depend on the processing

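In the values recomputed for the 5 tested members in each comparison, and in 172 called results of named list genes over the 8 comparisons, no direction that had been called reversed under any alternative. The fitted values of Spp1 stayed within 1 SE of the reported ones in each alternative for Dox, from -0.26 to -0.17 at 6 h and from -1.87 to -1.76 at 24 h. At 24 h those of Mpo ran from -1.63 to -1.30 and those of Hp from -2.94 to -2.37. Prtn3 ran from -2.80 to -0.48 and was not tested under the filter of 1 CPM in 4 libraries. Lyz2 ran from 0.72 to 0.96 at 6 h and from 0.02 to 0.30 at 24 h. Of the 172, 77 lost their call in at least 1 alternative. At 12 h the Dox comparison called 404 to 747 genes with a library left out against 1038, and limma-trend called 354 with a pseudocount of 0.1 and 365 with 1. At 6 h it called 87 to 183 against 236, and limma-trend 78 and 67. At 24 h it called 1065 to 1460 against 1690. From 6 h to 12 h, untreated cells gave 395 to 699 against 1145 (limma-trend 531 and 519) and Dox cells 1037 to 2496 against 2906 (limma-trend 1729 and 1721). From 12 h to 24 h the counts were 2072 to 2577 against 3440 without Dox and 1050 to 1964 against 2121 with it. The change of the Dox effect gave 178 to 285 against 319, and 139 with limma-trend and a pseudocount of 0.1. A fit without a library has fewer samples, and the cause of the lower limma-trend counts was not tested. Whether the replicate numbers pair the samples is not known. The correlation of deviations ran from -0.04 to 0.08 over 15 pairs of groups, which cannot decide it, since counting noise can hide a small shared shift. The replicate block gave 249, 1071 and 1722 genes for Dox at 6, 12 and 24 h and changed no count by over 1.5 times. Depth limits Prtn3 and Lyz1 most, with 137 reads and 1 read in all libraries.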
